A study of Mus musculus with 2 samples.

Results

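Among 28854 kept cells of 2 single-cell libraries of mouse 4T1 mammary tumours, 213 cells carried transcripts of 5 genes that mark pericytes, 147 in the AptCD4-LNT library and 66 in the Untreated library. A cell was counted when Rgs5, Notch3, Kcnj8, Abcc9 and Cspg4 together gave at least 3 unique molecular identifiers (UMIs), of which at least 2 came from Rgs5, Kcnj8 or Abcc9. It also had to carry no Ptprc, the pan-leukocyte gene CD45, at most 1 UMI of the endothelial genes Pecam1 and Cdh5, and fewer than 10 UMIs per 10000 of the tumour keratins Krt8 and Krt18. The members were thus selected on measured UMI counts of these genes, whose levels below are a description only. Cells with fewer than 200 detected genes or more than 20% mitochondrial UMIs were left out first. The 213 are called marker-selected cells here, since only some of them carried the wider set of pericyte genes.

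4T1 is a mouse line of triple-negative breast cancer, grown here as tumours in BALB/c mice. The AptCD4-LNT mice received AptCD4-LNT, which the series describes as made to mobilise and activate CD4+ T cells and which was dosed by cell number, in doses of 5000000, then 4000000, then 3000000 cells, 3 days apart. The Untreated mice bore the same tumours and received PBS, and all tumours were taken at 9 days. Each library is 1 pool of 3 tumours, so the spread between mice cannot be estimated: no comparison below carries a p-value, and every interval is an exact 95% interval that covers counting error only.

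Pericytes are mural cells that wrap capillaries within a basement membrane shared with the endothelium, and they are recruited by endothelial platelet-derived growth factor acting on the receptor PDGFRB. They set vessel tone through contractile proteins and an ATP-sensitive potassium channel made of the pore subunit Kcnj8 and the sulphonylurea receptor Abcc9. In tumours their coverage of vessels is often loose, and they share many matrix genes with fibroblasts, with which they are easily confused.

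The AptCD4-LNT library held 8931 barcodes and 98968100 UMIs, of which 8853 cells were kept with a median of 8838 UMIs, and the Untreated library held 20040 barcodes and 131295224 UMIs, of which 20001 cells were kept with a median of 4652. The 2 libraries shared 42 barcode sequences, and 0 marker-selected cells of either library carried one of them. The doublet caller Scrublet marked 203 AptCD4-LNT cells (2.29%) and 0 Untreated cells with its automatic threshold, which is no working call in the Untreated library, so no cell was removed as a doublet. Marker-selected cells had a median of 12832 UMIs in the AptCD4-LNT library and 4861 in the Untreated library, and the rule's fixed UMI numbers apply at these unequal depths.

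The marker-selected cells were of 2 kinds. Rgs5, a regulator of G-protein signalling and the usual leading pericyte gene, was detected in 49 of 147 AptCD4-LNT members (33.3%) and in 45 of 66 Untreated members (68.2%). The other members had entered through Kcnj8 and Abcc9: Kcnj8 was detected in 124 AptCD4-LNT and 40 Untreated members and Abcc9 in 129 and 57. Notch3, a Notch receptor of mural cells, was detected in 42 and 33, and Cspg4, the proteoglycan NG2, in 22 and 12.

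A division added after the data had been seen separated them. Members with a UMI of at least 2 of the fibroblast genes Pdgfra, Dcn, Lum and Dpt, called Dcn cells, numbered 102 of 147 in the AptCD4-LNT library and 21 of 66 in the Untreated library. The remaining members, called Rgs5 cells, numbered 45 in each library, and all of them carried Rgs5. Rgs5 UMIs per Rgs5 cell ran from 1 over a median of 40 to 122 in the AptCD4-LNT library and from 1 over a median of 9 to 86 in the Untreated library. Among the Dcn cells, 4 AptCD4-LNT and 0 Untreated cells had any Rgs5, with at most 5 UMIs.

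The pericyte markers that neither the rule nor the division used included Pdgfrb, Mcam, Cd248, Ndufa4l2, Higd1b, Cox4i2 and Vtn. Of these 7, Rgs5 cells carried a median of 6 in the AptCD4-LNT and 5 in the Untreated library. Dcn cells carried 2 and 1, as did fibroblasts. Cd248 was detected in 128 of 147 AptCD4-LNT and 41 of 66 Untreated members, Pdgfrb in 100 and 46, Ndufa4l2 in 90 and 40, and Vtn in 55 and 19. In the AptCD4-LNT library each of these outnumbered the 45 Rgs5 cells, so their detection did not by itself set the kinds apart. A narrower set of 5 genes separated the kinds, but it was not planned. It leaves out Pdgfrb, Cd248, Ndufa4l2 and Vtn and adds Gucy1a1 and Des, so its separation is a description only. At least 2 of Mcam, Higd1b, Gucy1a1, Des and Cox4i2 were detected in 45 of 45 AptCD4-LNT and 39 of 45 Untreated Rgs5 cells. The same held for 1 of 102 AptCD4-LNT and 0 of 21 Untreated Dcn cells. By an approximate limit, 3 divided by the number of cells, a count of 0 there allows a share of up to 14.3%. In cells that should lack these genes the share was 0.0826% in the AptCD4-LNT library and 0.224% in the Untreated library for epithelial cells, and 0.157% and 0.388% for haematopoietic cells. After every cell was thinned to 2000 UMIs, 37 of 45 AptCD4-LNT and 28 of 37 Untreated Rgs5 cells, 82.2% and 75.7%, still carried at least 2 of the 5. The Dcn cells had 0 of 102 and 0 of 21, for which the same approximate limit allows shares of up to 2.94% and 14.3%.

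**Figure D1:**
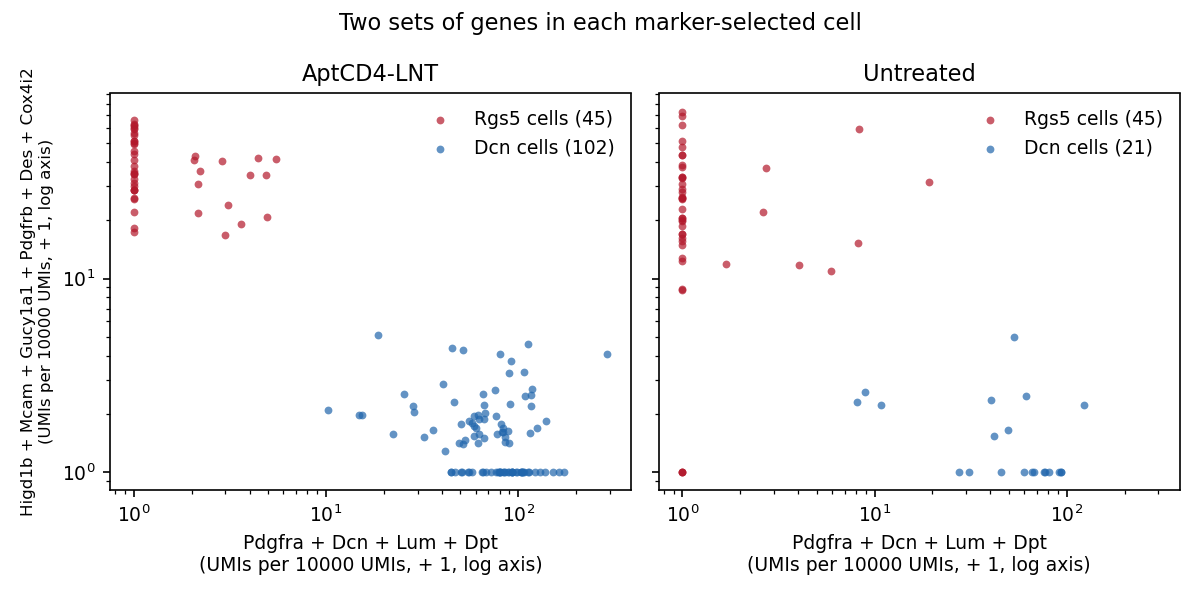
Each point is 1 marker-selected cell, with AptCD4-LNT cells in the left panel and Untreated cells in the right. The x axis gives the summed UMIs per 10000 of the fibroblast genes Pdgfra, Dcn, Lum and Dpt plus 1, which were used for the division, and the y axis those of Higd1b, Mcam, Gucy1a1, Pdgfrb, Des and Cox4i2 plus 1, which were not; both axes are logarithmic. Most Rgs5 cells (45 in each library) lie high on the left of each panel and Dcn cells (102 and 21) low on the right, with few cells between.

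Against the label, therefore, the Rgs5 cells met the narrower, unplanned set of pericyte markers and the Dcn cells did not. The fibroblast rule of these data asks for at least 100 UMIs per 10000 of the collagens Col1a1 and Col3a1 and at most 1 UMI of Rgs5, Kcnj8 and Abcc9. The collagen limit was passed by 99 of 102 Dcn cells (97.1%) in the AptCD4-LNT library and 95.2% in the Untreated library, but by 10 (22.2%) and 14 (31.1%) of the Rgs5 cells. Median Col1a1 and Col3a1 UMIs per 10000 were 694 in AptCD4-LNT and 763 in Untreated Dcn cells, and 59.6 and 64.9 in the Rgs5 cells of the same libraries.

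Cells just inside the threshold, with exactly 3 marker UMIs, numbered 34 in the AptCD4-LNT library and 11 in the Untreated library, and 1 in each had Rgs5 while 34 and 10 had Pdgfra or Dcn. Cells just outside it, with 2 marker UMIs that both came from Rgs5, Kcnj8 or Abcc9, numbered 64 and 27, of which 3 and 0 had Rgs5 and all had Pdgfra or Dcn. The threshold thus ran through cells of the Dcn kind. Of cells that reached the marker UMIs, 6 AptCD4-LNT and 25 Untreated cells failed the keratin limit, 9 and 11 the Ptprc limit, and 6 and 16 the limit on Pecam1 and Cdh5.

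The rule's markers were themselves unevenly placed. Expression is given below as UMIs of a gene per 1000000 UMIs (CPM), summed over the cells of a class in a library. Rgs5 stood at 5653 CPM in AptCD4-LNT and 3760 in Untreated Rgs5 cells, and at 0.553 and 0.391 CPM in fibroblasts. Kcnj8 was at 418 and 168 CPM in Rgs5 cells, at 166 and 178 in Dcn cells and at 4.75 and 6.26 in fibroblasts, and Abcc9 was at 826 and 491, 138 and 165, and 13.5 and 5.87 CPM. Both channel genes were thus present in Dcn cells at a level well above that of fibroblasts, which the rule fixes, since fibroblasts were allowed at most 1 such UMI.

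Kcnj8 and Abcc9 are direct neighbours on chromosome 6 with no annotated gene between them. Their promoters (250 bases before to 50 after the gene start, RefSeq, GRCm38.p6) are shown because these 2 genes brought in the Dcn cells. Capitals mark the RBPJ core, the letters TGGGAA or TTCCCA on either strand, to which the DNA-binding partner of Notch receptors attaches. Kcnj8 lies on the minus strand at chr6:142571565-142571864 and Abcc9 on the minus strand at chr6:142702225-142702524.
Kcnj8: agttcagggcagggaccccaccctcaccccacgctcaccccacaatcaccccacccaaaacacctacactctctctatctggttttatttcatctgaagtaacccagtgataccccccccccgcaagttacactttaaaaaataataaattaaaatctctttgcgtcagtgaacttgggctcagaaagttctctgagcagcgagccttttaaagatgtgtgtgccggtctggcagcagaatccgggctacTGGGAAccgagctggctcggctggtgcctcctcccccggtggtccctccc
Abcc9: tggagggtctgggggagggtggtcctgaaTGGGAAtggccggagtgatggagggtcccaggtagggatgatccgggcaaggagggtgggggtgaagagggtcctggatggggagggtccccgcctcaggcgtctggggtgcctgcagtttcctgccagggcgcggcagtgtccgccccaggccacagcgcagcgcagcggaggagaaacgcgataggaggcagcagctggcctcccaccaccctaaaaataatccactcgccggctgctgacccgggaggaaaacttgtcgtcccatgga
The motif was found in 2 of the 5 marker promoters (40%) and in 28.3% of 27025 promoters of the table, so a match describes the letters only. The promoters of Rgs5, Notch3 and Cspg4 held none in this window.

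The share of kept cells that were marker-selected was 1.66% (1.40 to 1.95) in the AptCD4-LNT library and 0.330% (0.255 to 0.420) in the Untreated library, 5.03-fold higher (3.74 to 6.83). That ratio was made up of unequal parts. Rgs5 cells made up 0.508% (0.371 to 0.680) of AptCD4-LNT and 0.225% (0.164 to 0.301) of Untreated cells, 2.26-fold higher (1.46 to 3.49), and Dcn cells 1.15% and 0.105%, 11.0-fold higher (6.81 to 18.5).

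The ratio of Rgs5 cells between the libraries depended on the cells they were set against. Fibroblasts numbered 682 (7.70%) in the AptCD4-LNT library and 634 (3.17%) in the Untreated library, 2.43-fold higher (2.18 to 2.71). There were 0.0660 Rgs5 cells per fibroblast in the AptCD4-LNT library and 0.0710 in the Untreated library, a ratio of 0.930 with an interval (0.601 to 1.44) that holds both a lower and a higher number. Endothelial cells, counted by at least 3 UMIs of Pecam1 and Cdh5, numbered 45 and 138, against 45 Rgs5 cells in each library, so that Rgs5 cells per endothelial cell were 3.07-fold higher in the AptCD4-LNT library (1.98 to 4.74). The keratin limit had taken out 6 AptCD4-LNT and 25 Untreated cells with the marker UMIs, and the limit on Pecam1 and Cdh5 6 and 16. The part of these exclusions in the ratios was not tested.

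Thinning removed more Dcn cells than Rgs5 cells. With every cell thinned to 2000 UMIs and shallower cells left out, 44 of 6327 AptCD4-LNT and 33 of 14389 Untreated cells met the rule as Rgs5 cells, a ratio of 3.03 (1.89 to 4.92), whereas Dcn cells dwindled to 8 and 3, a ratio of 6.06 (1.46 to 35.5). Rgs5 cells then made up 84.6% of the AptCD4-LNT and 91.7% of the Untreated members, against 30.6% and 68.2% with all UMIs. Members per fibroblast, 2.07-fold higher (1.54 to 2.81) in the AptCD4-LNT library with all UMIs, stood at 1.05-fold (0.673 to 1.65) after thinning, and Rgs5 cells per endothelial cell at 3.01-fold (1.88 to 4.89). Fibroblasts, which may hold at most 1 UMI of Rgs5, Kcnj8 and Abcc9, numbered 786 and 571 after thinning against 682 and 634 with all UMIs. Both members and fibroblasts thus moved in the ratio per fibroblast. Thinning left out 28.5% of AptCD4-LNT and 28.1% of Untreated cells.

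**Figure D2:**
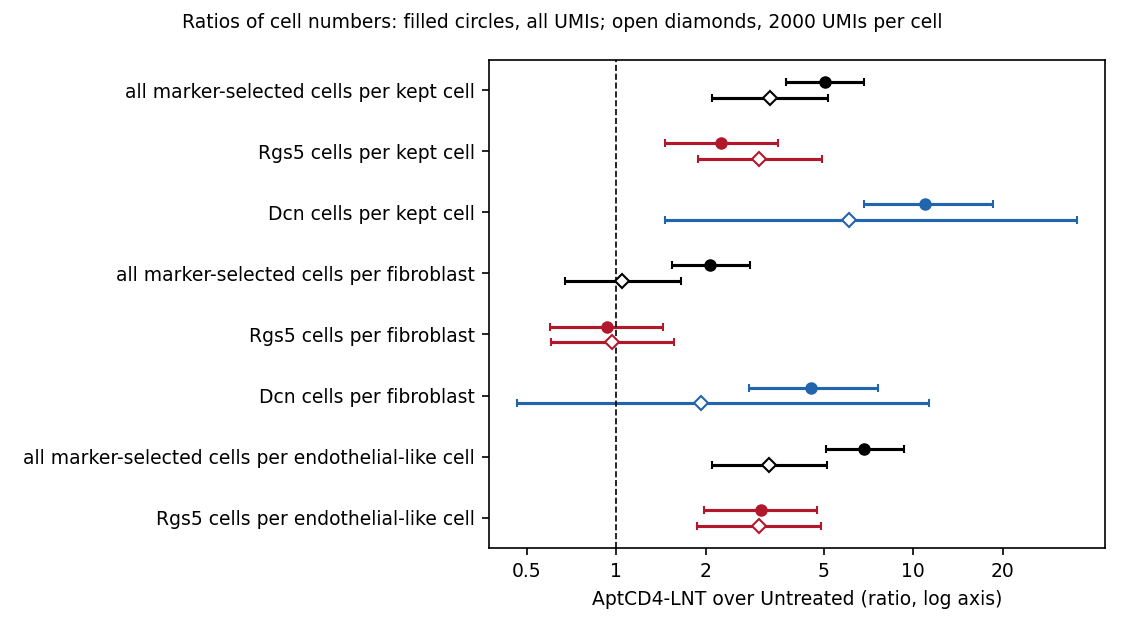
Ratios of AptCD4-LNT over Untreated for cell shares and for cells per fibroblast or per endothelial cell, on a logarithmic axis with exact 95% intervals for counting error. Filled circles use all UMIs and open diamonds cells thinned to 2000 UMIs; the Rgs5 cells keep a ratio near 1 per fibroblast (0.930 and 0.969) and above 1 per endothelial cell (3.07 and 3.01), and the marker-selected cells per fibroblast lie at 2.07 and 1.05.

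In both libraries genes of mural identity were far higher in Rgs5 cells than in fibroblasts. Higd1b, a hypoxia-inducible mitochondrial gene known as a pericyte marker, had 295 UMIs (868 CPM) in AptCD4-LNT and 123 UMIs (592 CPM) in Untreated Rgs5 cells and 0 UMIs in the Dcn cells and fibroblasts of both libraries. Taking 3 UMIs in all fibroblasts of a library as the floor, it was at least 2616-fold and at least 1009-fold higher. It was detected in 0.0826% and 0.153% of epithelial and 0.157% and 0.159% of haematopoietic cells, which should lack it, with median depths of 17310 and 7141 UMIs and of 2230 and 2920 UMIs.

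The adhesion molecule Mcam (CD146) was at 541 and 347 CPM in AptCD4-LNT and Untreated Rgs5 cells, 106-fold and 55.4-fold over fibroblasts, and had 0 UMIs in Dcn cells. Pdgfrb, the receptor through which endothelial PDGF-B recruits pericytes, was at 1182 and 722 CPM, 10.1-fold and 7.25-fold over fibroblasts, and at 68.5 and 60.7 CPM in Dcn cells. Cox4i2, a lung and pericyte isoform of a respiratory chain subunit, was at 350 and 207 CPM against 1.66 and 3.52 CPM in fibroblasts. Not every gene of the list was high: the aminopeptidase Anpep was at 23.5 CPM and 0 UMIs against 47.1 and 38.2 CPM in fibroblasts, and the extracellular superoxide dismutase Sod3 had 17 and 16 UMIs, with log2 ratios over fibroblasts of -3.04 and -1.98. Of the list of other pericyte identity genes, 13 of 17 measured genes were at least 1.5-fold higher and 2 lower in AptCD4-LNT Rgs5 cells, with a median log2 ratio of 2.38, and 10 of 15 were higher and 3 lower in Untreated ones, with a median of 2.08. Over all genes with at least 50 UMIs in Rgs5 cells and fibroblasts together, 25.1% were at least 1.5-fold higher and 25.1% lower in the Rgs5 cells of the AptCD4-LNT library (median log2 0.09, 10047 genes), and 19.9% were higher and 25.9% lower in the Untreated library (median 0.01, 8798 genes).

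Genes of vessel tone followed identity. Gucy1a1, a subunit of the nitric oxide receptor guanylate cyclase, was at 238 and 149 CPM in AptCD4-LNT and Untreated Rgs5 cells against 0.442 CPM (4 UMIs) and 0.196 CPM (1 UMI) in fibroblasts, a log2 ratio of 9.07 (7.66 to 10.98) and 9.57 (6.99 to 14.92). The endothelin receptor Ednrb was at 1012 and 510 CPM against 3.76 and 0.587 CPM, a log2 ratio of 8.07 (7.56 to 8.63) and 9.76 (8.18 to 12.06), and its relative Ednra at 335 and 144 CPM against 19.1 and 20.9. Of the list, 13 of 17 measured genes were higher and 4 lower in the AptCD4-LNT library (median 2.13), and 8 of 12 were higher and 2 lower in the Untreated library (median 2.42). The prostaglandin receptors Ptger3 and Ptger4 and the potassium channel gene Kcnma1 had 0 UMIs in Rgs5 cells of both libraries.

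Outside the lists, genes named for their ratio over fibroblasts in both libraries included Ppp1r14a, an inhibitor of myosin phosphatase, at 444 and 486 CPM against 0.884 and 0.783. Esam, an adhesion molecule of endothelial and mural cells, was at 268 and 221 CPM against 1.44 and 0.587, and the cation channel gene Trpc6 at 241 and 149 CPM against 0.221 CPM (2 UMIs) and 0 UMIs. Apold1, an early response gene of vessel cells, was at 444 and 255 CPM against 0.221 CPM (2 UMIs) and 0 UMIs, at least 435-fold higher in the Untreated library. Serpina1b, a serine protease inhibitor known chiefly from liver, was at 456 and 125 CPM against 0.553 CPM and 0 UMIs.

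**Figure D3:**
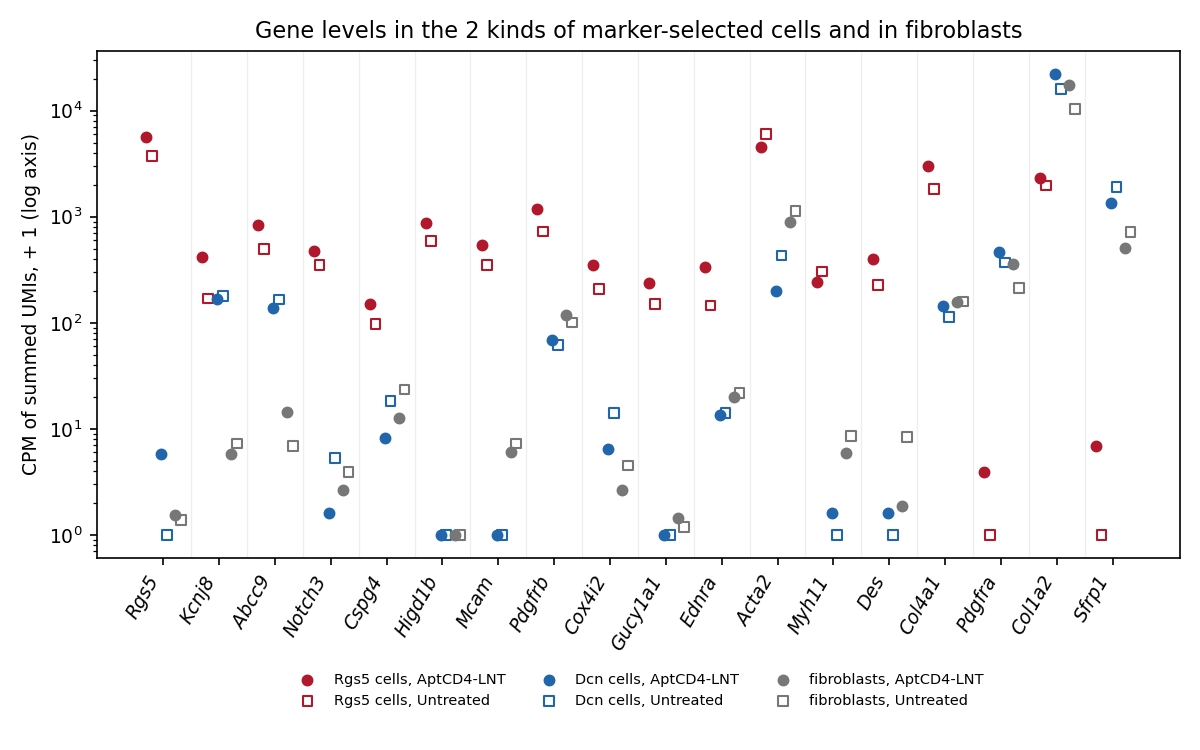
Level in CPM plus 1, on a logarithmic axis, of 18 genes in Rgs5 cells, Dcn cells and fibroblasts, with filled circles for AptCD4-LNT and open squares for Untreated. Mural genes such as Higd1b and Mcam stand high in Rgs5 cells of both libraries (Mcam at 541 and 347 CPM) and at 0 CPM in Dcn cells, while fibroblast genes show the opposite order.

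Contractile genes were higher in Rgs5 cells than in fibroblasts in both libraries. Of the list, 15 of 16 measured genes were at least 1.5-fold higher in the AptCD4-LNT library and 13 of 15 in the Untreated library, none was lower, and the medians were 2.28 and 2.30. Smooth muscle actin, Acta2, was at 4500 and 6036 CPM in Rgs5 cells against 884 and 1126 in fibroblasts, and myosin light chain kinase, Mylk, at 600 and 737 CPM against 12.8 and 12.9. Smooth muscle myosin, Myh11, was at 241 and 303 CPM against 4.97 and 7.63, and the intermediate filament gene Des at 397 and 226 CPM against 0.884 and 7.44. In the Untreated library the median of this list was 1.37 for genes with at least 100 UMIs and 0.97 without cells that held UMIs of the myeloid genes Lyz2, S100a8, S100a9 or Tyrobp.

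The Rgs5 cells varied in this respect. Myh11 was detected in 25 of 45 AptCD4-LNT and 17 of 45 Untreated Rgs5 cells, with median depths of 7910 and 5636 UMIs, and the cells without it had medians of 5892 and 2612. Cells with Myh11 had Acta2 at 6278 and 8911 CPM and Tagln, the actin-binding protein transgelin, at 4057 and 5496 CPM, whereas cells without it had Acta2 at 1636 and 2703 CPM and Tagln at 507 and 1216 CPM. Rgs5 itself was at 6231 and 4626 CPM with Myh11 and at 4723 and 2755 CPM without. In the Untreated library Kcnj8 and Higd1b ran the other way, at 44.8 CPM (5 UMIs) and 305 CPM in cells with Myh11. They were at 312 CPM (30 UMIs) and 925 CPM in cells without, and Kcnj8 was among the genes that chose the cells. In the AptCD4-LNT library Kcnj8 was at 391 CPM with and 461 CPM without, and Higd1b at 915 and 791. Pdgfrb differed little, at 1158 and 681 CPM with Myh11 and 1221 and 769 CPM without. Myh11, Acta2 and Tagln are also smooth muscle markers, so the Rgs5 cells may hold smooth muscle cells of vessels beside pericytes. Whether they do was not tested.

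The promoter of Myl9, the regulatory light chain of smooth muscle myosin, is shown as the member of this list whose window held a CArG box, the element bound by serum response factor (RefSeq, GRCm38.p6, chr2:156775214-156775513, plus strand, element in capitals).
Myl9: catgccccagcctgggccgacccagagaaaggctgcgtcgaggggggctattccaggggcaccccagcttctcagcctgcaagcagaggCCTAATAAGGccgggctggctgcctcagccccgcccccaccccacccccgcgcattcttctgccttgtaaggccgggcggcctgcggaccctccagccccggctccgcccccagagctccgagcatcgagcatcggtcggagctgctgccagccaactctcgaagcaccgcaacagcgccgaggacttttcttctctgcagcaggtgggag
A CArG box was found on either strand in 1 of 18 promoters of the list (5.56%) and in 1.81% of all promoters of the table. Myl9 was at 559 and 693 CPM in AptCD4-LNT and Untreated Rgs5 cells against 66.1 and 117 CPM in fibroblasts.

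Basement membrane and fibrillar matrix genes had different ratios over fibroblasts. The collagen IV gene Col4a1, the chief basement membrane collagen, was at 2988 and 1815 CPM in AptCD4-LNT and Untreated Rgs5 cells, 19.3-fold and 11.5-fold over fibroblasts, and the collagen-binding integrin Itga1 at 1256 and 953 CPM, 31.5-fold and 15.4-fold over them. The basement membrane list as a whole was less one-sided, with 9 of 18 measured genes higher and 3 lower in the AptCD4-LNT library (median 0.69) and 6 of 17 higher and 4 lower in the Untreated library (median 0.25). Laminin and nidogen genes were close to fibroblast levels: Nid1 was at 600 and 409 CPM against 426 and 336, and Lamc1 at 262 and 183 CPM against 301 and 187.

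The fibrillar matrix list was lower in Rgs5 cells, in 14 of 20 genes of the AptCD4-LNT library (1 higher, median -1.16) and 15 of 20 of the Untreated library (0 higher, median -1.18). Fibroblasts were chosen for high Col1a1 and Col3a1, and Rgs5 cells for carrying few fibroblast genes. Lower fibrillar and fibroblast genes are thus in part set by how the classes were chosen, and the values here are a description only. The collagen I chain Col1a2 was at 2321 and 1969 CPM against 17507 and 10352 in fibroblasts, and the crosslinking enzyme Lox at 20.6 and 9.63 CPM against 986 and 643. Postn, a matricellular protein, was at 2788 CPM against 2510 in fibroblasts of the AptCD4-LNT library and at 1434 against 2635 CPM in the Untreated library. Fibroblast genes such as the Wnt modulator Sfrp2 (5.88 CPM from 2 UMIs, and 0 UMIs, against 1345 and 722 CPM), Igfbp3, an insulin-like growth factor carrier (0 UMIs in both against 509 and 953 CPM), and the chemokine Cxcl14 (14.7 and 14.4 CPM against 1382 and 2957) were nearly missing.

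PDGF and Notch genes lay in both directions against fibroblasts. Of the PDGF list apart from Pdgfra, 2 of 5 measured genes were higher and 3 lower in the AptCD4-LNT library (median -1.61). In the Untreated library 2 of 4 were higher and 2 lower (median 0.40). The ligand genes Pdgfc and Pdgfd had 0 UMIs in AptCD4-LNT Rgs5 cells. Among PDGF genes, the ligand gene Pdgfa was at 750 and 712 CPM in AptCD4-LNT and Untreated Rgs5 cells against 81.4 and 200 CPM in fibroblasts, and the fibroblast receptor gene Pdgfra, used for the division, had 1 and 0 UMIs. Of the Notch pathway apart from Notch3, 4 of 7 measured genes were higher and 3 lower in the AptCD4-LNT library (median 1.03) and 4 of 7 higher and 1 lower in the Untreated library (median 0.92). The Notch target genes Heyl and Nrarp were at 100 and 91.5 CPM against 7.30 and 7.24, and at 79.4 and 57.8 CPM against 1.66 and 2.15. In the AptCD4-LNT library the Notch median was -0.83 without cells that held myeloid UMIs.

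Vessel growth factor and TGF-beta genes were found in both directions against fibroblasts. Vegfa was at 58.8 and 62.6 CPM against 227 and 234, Tgfbr2 at 67.7 and 62.6 CPM against 653 and 450, and Tgfbr3 at 35.3 and 43.3 CPM against 234 and 143. Higher were the VEGF receptor Flt1, at 418 and 390 CPM against 6.08 and 7.63, and the vessel-destabilising ligand Angpt2, at 35.3 and 57.8 CPM against 2.21 and 3.52. Of the angiopoietin and vessel growth factor list, 5 of 13 measured genes were higher and 7 lower in the AptCD4-LNT library (median -1.95) and 3 of 11 higher and 6 lower in the Untreated library (median -1.36). With no minimum count the medians of this list turned round, to 0.57 and 0.12. Of the TGF-beta list, 5 of 19 were higher and 11 lower (median -0.88), and 4 of 19 higher and 9 lower (median -0.45).

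Markers of other cell types were detected in Rgs5 cells at levels that were unequal between the libraries. The 12 endothelial markers summed to 729 CPM in the AptCD4-LNT and 698 CPM in the Untreated Rgs5 cells, with 6 of 12 above 0 in each, and the defining genes Pecam1, Cdh5, Tek, Cldn5 and Tie1 at 0 in both, the first pair being held down by the rule. Epithelial and tumour markers summed to 121 and 1117 CPM, with 9 and 11 of 12 above 0, neutrophil markers to 159 and 1555 CPM, with 5 and 10 of 10 above 0, and macrophage and monocyte markers to 129 and 549 CPM, with 11 and 9 of 12 above 0. The fibroblast markers summed to 9915 and 9541 CPM, against 64424 and 51461 in fibroblasts, and Schwann cell markers to 11.8 and 4.81 CPM with Sox10 at 0. T and NK cell markers summed to 20.6 and 48.1 CPM, with 2 and 1 of 10 above 0 and Cd3e at 0. The 6 adipocyte markers summed to 1124 and 607 CPM, against 37.8 and 63.8 in fibroblasts and 5104 and 7228 in endothelial cells. In Rgs5 cells all of it came from Fabp4, a fatty acid carrier that capillary endothelium also makes, with Adipoq, Plin1, Cidec, Lep and Cfd at 0. The 9 skeletal muscle markers summed to 400 and 226 CPM, of which Des gave 397 and 226.

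Between the libraries, 12.4% of 1984 genes with at least 50 UMIs were at least 1.5-fold higher and 7.26% lower in AptCD4-LNT than in Untreated Rgs5 cells (247 and 144 genes, median log2 0.03). Of the interferon list, 8 of 11 measured genes were lower and 0 higher (median -1.20). In fibroblasts 0 of 20 were higher and 18 lower (median -1.70, against 8.42% of all genes higher, 12% lower and a median of -0.04). In Dcn cells 0 of 14 were higher and 9 lower (median -1.33, against 17.1% higher, 12.7% lower and a median of 0.02). The Dcn cell value of the interferon response list turned round, to 0.16, when the cells of highest doublet score were left out, which kept 98 of 102 AptCD4-LNT and 19 of 21 Untreated Dcn cells. That exclusion assumed 0.8% doublets per 1000 barcodes. It was thus unequal between the libraries, taking the 633 highest-scoring AptCD4-LNT cells (7.14%) and 3207 Untreated cells (16.0%).

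The genes that were lower included several known to be induced by interferon gamma. Iigp1, an immunity-related GTPase, was at 277 CPM in AptCD4-LNT and 1165 CPM in Untreated Rgs5 cells (log2 -2.08, -2.43 to -1.73), and its relative Igtp at 23.5 and 144 CPM (8 and 30 UMIs, log2 -2.62, -3.95 to -1.46). The guanylate-binding protein gene Gbp2 was at 47.1 and 270 CPM (log2 -2.52, -3.42 to -1.70), and Gbp4 and Gbp2b, named for their size of change outside the lists, at 38.2 and 274 CPM and at 55.9 and 395 CPM. The transcription factor Irf1 was at 132 and 298 CPM, and the immunoproteasome subunit Psmb9 at 73.5 and 270 CPM. The antiviral gene Ifitm3 of the same list was at 2877 and 3244 CPM (log2 -0.17).

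In this comparison the RNA of myeloid and tumour cells was lower too, with the values given above, and its part in the result was not tested. The fibroblast rule set no limit on Ptprc or keratins. Epithelial and tumour markers summed to 648 CPM in AptCD4-LNT and 2138 CPM in Untreated fibroblasts, and macrophage and monocyte markers to 619 and 1610 CPM. Their part in the fibroblast values was not tested either. Without cells holding any UMI of Lyz2, S100a8, S100a9 or Tyrobp, which left 23 AptCD4-LNT and 15 Untreated Rgs5 cells, the interferon list had a median of -0.50 over the 5 genes still measured, with 0 higher and 2 lower. Cd74, the MHC class II invariant chain, had 9 UMIs in 7 AptCD4-LNT and 91 UMIs in 15 Untreated Rgs5 cells.

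The promoters of Igtp and Gbp2 are shown because both genes were lower in AptCD4-LNT Rgs5 cells and fibroblasts. Capitals mark an interferon-stimulated response element, searched on both strands as GAAANNGAAA or TTTCNNTTTC (RefSeq, GRCm38.p6, both plus strand, Igtp chr11:58199306-58199605 and Gbp2 chr3:142620413-142620712).
Igtp: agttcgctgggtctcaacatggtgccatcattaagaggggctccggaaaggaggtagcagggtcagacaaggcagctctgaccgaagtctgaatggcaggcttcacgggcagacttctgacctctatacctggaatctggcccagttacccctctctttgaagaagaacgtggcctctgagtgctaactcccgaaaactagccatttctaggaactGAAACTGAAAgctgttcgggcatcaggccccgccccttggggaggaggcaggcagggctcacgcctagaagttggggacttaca
Gbp2: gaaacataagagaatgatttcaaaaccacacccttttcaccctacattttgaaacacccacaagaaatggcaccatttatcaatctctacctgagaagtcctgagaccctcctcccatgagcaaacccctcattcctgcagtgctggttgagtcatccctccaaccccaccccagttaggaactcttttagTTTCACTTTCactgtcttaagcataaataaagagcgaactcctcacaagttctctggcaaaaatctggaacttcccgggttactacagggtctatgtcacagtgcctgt
The element lay in 12 of 17 promoters of the interferon list (70.6%) and in 3.99% of all promoters of the table. Its match starts at position -34 from the gene start in Igtp and at -59 in Gbp2.

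MHC class I genes, which present peptides to CD8+ T cells, had different ratios in Rgs5 cells and in fibroblasts. The light chain B2m was at 3230 CPM in AptCD4-LNT and 3317 CPM in Untreated Rgs5 cells (log2 -0.04, -0.18 to 0.10), but at 666 and 1392 CPM in Dcn cells (log2 -1.06, -1.24 to -0.88) and at 856 and 1836 CPM in fibroblasts (log2 -1.10, -1.14 to -1.06). The heavy chain H2-K1 was at 2677 and 2667 CPM in Rgs5 cells (log2 0.01, -0.15 to 0.16) and at 953 and 2137 CPM in fibroblasts (log2 -1.17, -1.21 to -1.12). The peptide transporter gene Tap1 was lower in Rgs5 cells too (log2 -1.11, -1.92 to -0.32).

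Of the class I list, 0 of 6 measured genes were higher and 3 lower in AptCD4-LNT Rgs5 cells (median -0.42), against 0 of 10 higher and 10 lower in fibroblasts (median -1.13) and 0 of 8 higher and 6 lower in Dcn cells. The difference between these classes was not tested, since each rests on 1 library a group. The fibroblast class also held the unequal tumour and macrophage RNA given above, whose part in its ratios was not tested. Without the cells of highest doublet score the median of the MHC class I list was 0.01 in Rgs5 cells and 0.089 in Dcn cells. Within each library B2m was higher in Rgs5 cells than in fibroblasts, 3.77-fold in AptCD4-LNT and 1.81-fold in Untreated tumours, and the class I list had 7 of 9 genes higher (median 1.49) and 5 of 10 higher (median 0.63), with 0 lower in either.

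**Figure D4:**
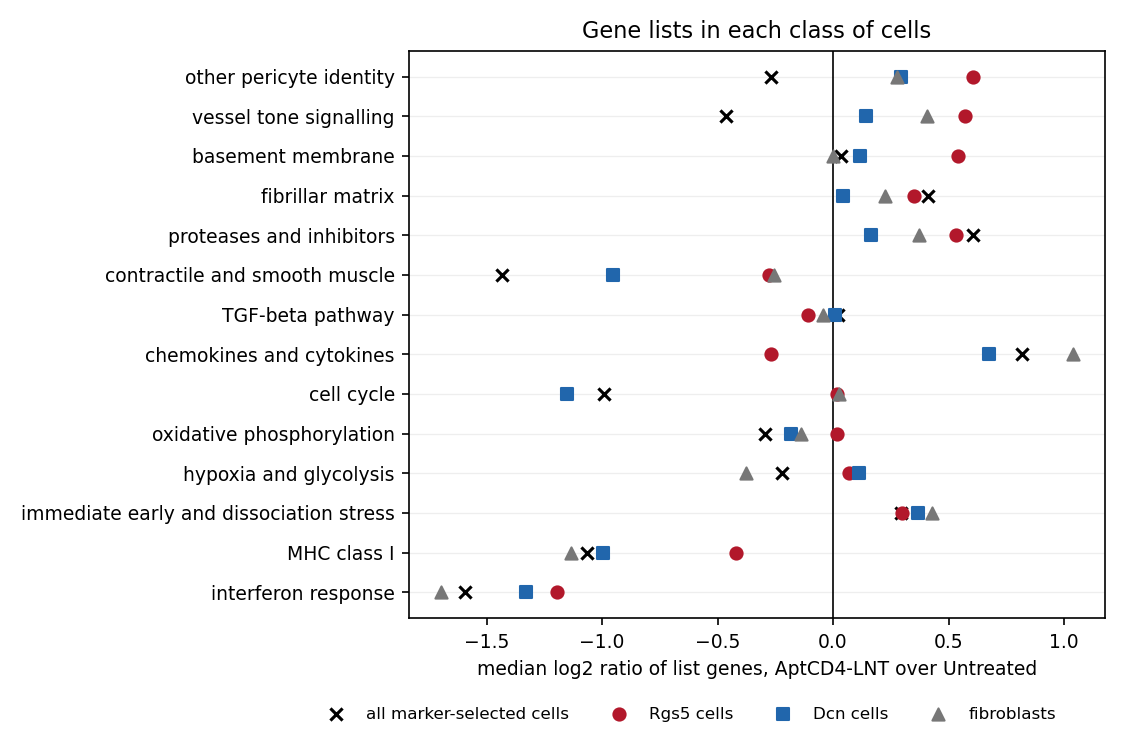
Median log2 ratio of AptCD4-LNT over Untreated for each gene list, in all marker-selected cells (crosses), Rgs5 cells (circles), Dcn cells (squares) and fibroblasts (triangles). The interferon list is below 0 in each class with all cells kept (-1.20 in Rgs5 cells, -1.33 in Dcn cells, -1.70 in fibroblasts), although the Dcn value is 0.16 without the cells of highest doublet score, and the chemokine and cytokine list lies at -0.27 in Rgs5 cells and at 1.04 in fibroblasts, while the Dcn cell median of the chemokines and cytokines, 0.68, turns to -0.35 under a stricter rule of 5 marker UMIs.

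Of the chemokine and cytokine list, 0 of 8 measured genes were higher and 3 lower in AptCD4-LNT Rgs5 cells (median -0.27), and 9 of 16 were higher and 0 lower in Dcn cells (median 0.68) and 14 of 21 higher and 3 lower in fibroblasts (median 1.04). These medians are over different sets of genes, and the difference between the classes was not tested. In Dcn cells the median of the chemokines and cytokines was -0.35 under a stricter rule of 5 marker UMIs, which left 52 AptCD4-LNT and 4 Untreated cells. The monocyte attractant Ccl2 was at 579 and 505 CPM in Rgs5 cells (log2 0.20, -0.15 to 0.55), at 1875 and 880 CPM in Dcn cells (log2 1.09, 0.89 to 1.30) and at 1618 and 533 CPM in fibroblasts (log2 1.60, 1.54 to 1.66). The neutrophil attractant Cxcl1 was at 1218 and 1208 CPM in Rgs5 cells.

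The T cell attractants that interferon gamma induces were lower in AptCD4-LNT Rgs5 cells. Cxcl10 was at 20.6 CPM (7 UMIs) in AptCD4-LNT and 231 CPM (48 UMIs) in Untreated Rgs5 cells (log2 -3.49, -4.88 to -2.34). Cxcl9 was at 141 and 491 CPM (log2 -1.80, -2.32 to -1.29), but 1 cell gave 79% of its UMIs in the AptCD4-LNT library and 25% in the Untreated library. The alarmin Il33 had 1 UMI in the Rgs5 cells of each library, and the chemokine Cxcl12 had 3 and 4.

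Some genes of pericyte identity and vessel tone were higher in AptCD4-LNT Rgs5 cells. The Untreated Rgs5 cells were shallower, with a median of 2984 UMIs against 6535. They also held more tumour and neutrophil RNA, with the sums given above. The part of either in these ratios and in the matrix ratios that follow was not tested. Of the other pericyte identity genes 6 of 12 measured were higher and 0 lower (median 0.60), and of the vessel tone genes 4 of 8 were higher and 0 lower (median 0.57). Ednrb had a log2 ratio of 0.99 (0.67 to 1.32), Ednra of 1.22 (0.62 to 1.85), Pdgfrb of 0.71 (0.44 to 0.99) and Higd1b of 0.55 (0.24 to 0.87). Tbx2, a transcription factor of mural cells, was at 147 and 57.8 CPM (log2 1.35, 0.42 to 2.39). Gja4, a gap junction gene, was at 159 and 226 CPM (log2 -0.51, -1.10 to 0.09). Of the rule's 5 markers 4 were at least 1.5-fold higher and 0 lower (median 0.64), with Kcnj8 at a log2 ratio of 1.31 (0.77 to 1.89) and Rgs5 at 0.59 (0.47 to 0.71); these genes chose the cells.

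Of the basement membrane genes 5 of 12 measured were higher and 0 lower (median 0.54), against 3 of 18 higher and 2 lower in fibroblasts (median -0.00). Col4a1 had a log2 ratio of 0.72 (0.55 to 0.89) in Rgs5 cells and -0.02 (-0.15 to 0.11) in fibroblasts, and Col18a1, the collagen from which endostatin is cut, was at 762 and 433 CPM in Rgs5 cells (log2 0.81, 0.46 to 1.18). Sparcl1, a matricellular gene of mural cells, was at 3303 and 1483 CPM in Rgs5 cells (log2 1.16, 0.97 to 1.34) and at 59.9 and 180 CPM in fibroblasts (log2 -1.58, -1.74 to -1.43). Of the fibrillar matrix list 7 of 17 genes were higher and 1 lower (median 0.35), with Postn at 0.96 (0.77 to 1.15) and Col6a3 at 0.75 (0.55 to 0.96), and Col8a1, a vessel wall collagen, at -1.13 (-1.60 to -0.67). Of the proteases and inhibitors 5 of 10 were higher and 0 lower (median 0.53), among them Timp3, a matrix-bound inhibitor, at 0.87 (0.51 to 1.26).

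The contractile list was mixed. Of 13 measured genes 2 were higher and 1 lower (median -0.28). Acta2 had a log2 ratio of -0.42 (-0.53 to -0.31) and Tagln of -0.38 (-0.52 to -0.24), close to the -0.35 of Acta2 in fibroblasts, while Des was at 0.81 (0.32 to 1.32) and Mustn1, a small musculoskeletal nuclear gene, at -1.54 (-2.17 to -0.93). Without cells that held myeloid UMIs the median was 0.30. Mgp, the matrix Gla protein that restrains calcification of vessel walls, was at 841 and 2744 CPM in Rgs5 cells (log2 -1.71, -1.92 to -1.50) and at 110 and 364 CPM in fibroblasts (log2 -1.73). Ccn2, a matricellular target of TGF-beta, was at 174 and 578 CPM (log2 -1.73, -2.21 to -1.27).

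Outside the lists, the first gene by ratio of those named was Kremen1, a Dickkopf receptor, at 156 CPM (53 UMIs) in AptCD4-LNT and 19.3 CPM (4 UMIs) in Untreated Rgs5 cells (log2 3.02, 1.58 to 4.95). In fibroblasts it was at 68.9 and 57.3 CPM. Serpina1b followed with a log2 ratio of 1.86 (1.26 to 2.52) and Kcne4, a potassium channel subunit, with 1.85 (0.96 to 2.87), at 209 and 57.8 CPM. Pim1, a kinase of cytokine signalling, was at 103 and 289 CPM (log2 -1.49, -2.13 to -0.86). Among early response genes, 4 of 19 were higher and 1 lower (median 0.30), with the heat shock gene Hspa1a at 379 and 96.3 CPM (log2 1.98, 1.29 to 2.74), which also marks stress during dissociation.

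Other lists stayed near the median of all genes in Rgs5 cells. Of the hypoxia and glycolysis genes 1 of 14 was higher and 1 lower (median 0.07), of the oxidative phosphorylation genes 0 of 16 were higher and 1 lower (median 0.02), of the cell cycle genes 1 of 9 was higher and 0 lower (median 0.02), and of the TGF-beta genes 2 of 7 were higher and 1 lower (median -0.11). Of 3 measured Notch genes 1 was higher and 0 lower. Cells with at least 2 UMIs of 11 mitotic genes after thinning made up 6 of 45 (13.3%, 5.05 to 26.8) AptCD4-LNT and 7 of 37 (18.9%, 7.96 to 35.2) Untreated Rgs5 cells, against 10.7% and 13.2% of fibroblasts and 23.7% and 26.6% of epithelial cells.

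**Figure D5:**
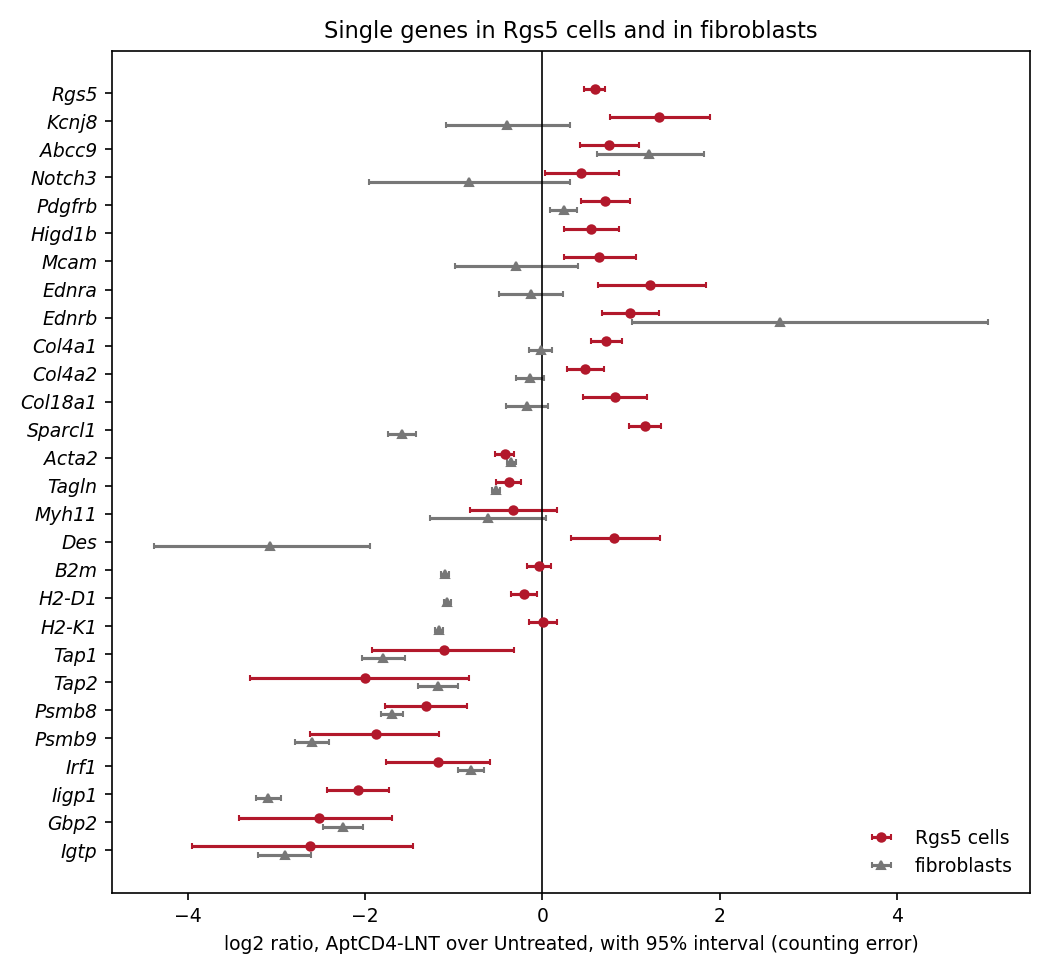
Log2 ratio of AptCD4-LNT over Untreated with its exact 95% interval for counting error, for 28 genes in Rgs5 cells (red circles) and fibroblasts (grey triangles); points with fewer than 30 UMIs are left out. B2m lies at -0.04 in Rgs5 cells and -1.10 in fibroblasts, Col4a1 at 0.72 and -0.02, Sparcl1 at 1.16 and -1.58, and Iigp1 is below 0 in both.

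The Dcn cells were close to fibroblasts in matrix genes. Against fibroblasts of the same library the fibrillar matrix list had 0 of 20 genes higher and 0 lower in the AptCD4-LNT library (median -0.05, against 4.62% of all genes higher and 12% lower) and 3 of 20 higher and 1 lower in the Untreated library (median 0.12, against 12.1% higher and 23.2% lower). They had fewer contractile transcripts, with 0 of 13 genes higher and 10 lower (median -1.32) and 0 of 12 higher and 5 lower (median -0.48). Higher were Gas6, a ligand of TAM receptors, at 931 and 1175 CPM against 341 and 337, the growth factor Igf1 at 710 and 1214 CPM against 347 and 581, the complement gene C3 at 1681 and 1301 CPM against 980 and 713, and Angptl1, an angiopoietin-like protein, at 162 and 772 CPM against 28.2 and 267.

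Between the libraries the acute-phase gene Saa3 was at 4097 CPM in AptCD4-LNT and 707 CPM in Untreated Dcn cells (log2 2.54, 2.31 to 2.77) and at 2191 and 307 CPM in fibroblasts, while Rgs5 cells had 2 UMIs in each library. The eosinophil attractant Ccl11 was at 267 and 56.4 CPM in Dcn cells (log2 2.25, 1.46 to 3.17) and 226 and 279 CPM in Rgs5 cells (log2 -0.30, -0.81 to 0.22). Serpinb2, an inhibitor of plasminogen activators, had 400 UMIs in AptCD4-LNT Dcn cells and 0 UMIs in Untreated Dcn cells and in the Rgs5 cells of both libraries. Cell cycle genes were lower in summed UMIs of AptCD4-LNT Dcn cells, in 10 of 11 measured with 1 higher (median -1.15), with Top2a at 24.0 and 186 CPM, from 12 of 102 and 4 of 21 cells. By share of cells with at least 2 mitotic UMIs after thinning, they were not lower, at 7 of 102 (6.86%, 2.80 to 13.6) and 1 of 21 (4.76%, 0.120 to 23.8). The 2 deepest Untreated Dcn cells gave 38281 and 32557 of the 230658 UMIs of their class. Without the cells of highest doublet score the cell cycle median was 2.10, the opposite direction, with 98 AptCD4-LNT and 19 Untreated Dcn cells left.

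Over all 213 marker-selected cells, list values differed from those within the Rgs5 cells. In all members 15.1% of 6131 genes were at least 1.5-fold higher and 14.5% lower in the AptCD4-LNT library (median -0.05). The contractile list had 0 of 15 genes higher and 13 lower (median -1.43) and the chemokine and cytokine list 13 of 18 higher and 2 lower (median 0.82), although within the Rgs5 cells their medians were -0.28 and -0.27. Without cells holding myeloid UMIs the median of the contractile and smooth muscle list over all members was 0.025. Values over all marker-selected cells weigh 102 Dcn cells in the AptCD4-LNT library against 21 in the Untreated library. The interferon list kept its direction, with 2 of 18 genes higher and 13 lower (median -1.60).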

How the data were processed

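Whole UMI counts per gene and cell were deposited by the authors as one filtered matrix for each of the 2 libraries, made with Cell Ranger 7.2.0 on GRCm39, per the submitters' processing notes; filters beyond cell calling are not given in the sources used here. Counts were read as deposited with Python 3.11.15, numpy 2.4.6, scipy 1.17.1 and pandas 2.3.3, Scrublet was run through scanpy 1.11.5, and plots were drawn with matplotlib 3.10.9. Cells with under 200 genes or over 20% mitochondrial UMIs were removed. UMIs were summed per class and library and scaled to counts per 1000000 UMIs (CPM).

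A gene was measured in a comparison when both classes together held at least 50 UMIs and was called higher or lower past 1.5-fold. Ratios carry exact conditional Poisson intervals and shares exact Clopper-Pearson intervals, at 95%, for counting error only. The upper limits given for counts of 0 are not exact but 3 divided by the number of cells. List medians need at least 4 measured genes. Where a class had 0 UMIs, 3 UMIs over the class served as the floor of a fold. The scripts were tested on simulated data that held counting error only. There, 7.21% of unchanged genes lay past 1.5-fold in either direction at the depth of the Rgs5 cells. The share was 9.71% for all marker-selected cells and 15.8% for Dcn cells, so part of the genes called between the libraries can come from counting error.

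The marker-selected cells and the gene lists were chosen with earlier results of these data known, and the division into Rgs5 and Dcn cells was added after seeing the data. Named genes were the rule's markers and list members, mostly those with at least 50 UMIs in the members of both libraries, and, outside the lists, up to 10 genes in each direction by ratio between the libraries, the 20 highest and 10 lowest over fibroblasts, and 10 by share of cells. List members named for being at or near 0 UMIs, and genes shown for other cell types, were chosen after their values were seen. Promoters came from RefSeq (GRCm38.p6), and none of its coordinates was joined to the counts.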

Additional observations from a re-analysis of the deposited data

Results flagged for a closer look

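The chemokine and cytokine list had opposite signs in Rgs5 cells and in fibroblasts. Its median log2 ratio of AptCD4-LNT over Untreated was -0.27 in Rgs5 cells, over 8 measured genes, and 1.04 in fibroblasts, over 21, a gap of -1.31. With 1 library a group the difference was not tested. The 8 genes are fewer than the 21 because the Rgs5 cells hold fewer UMIs. Ccl2, the monocyte attractant, had a log2 ratio of 0.20 (-0.15 to 0.55) in Rgs5 cells and 1.60 (1.54 to 1.66) in fibroblasts.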

How the results depend on the processing

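No paired analysis was possible because each group is 1 library, and for the same reason no replicate could be left out. Of the alternatives' values, 176 of 197 for the main results and 1573 of 1723 for single genes and other lists were labelled the same as the main value. The label allowed a change of sign where the main value was not called higher or lower, so these counts do not show that direction was kept. The contractile median in Rgs5 cells, for example, changed sign without cells that held myeloid UMIs, as given above. With cells thinned to 2000 UMIs the AptCD4-LNT over Untreated ratio was 3.29 for the share of cells that were marker-selected, 1.05 for marker-selected cells per fibroblast, 3.27 for marker-selected cells per endothelial cell and 6.06 for the Dcn cell share of cells, which was 29.4 under the stricter rule. The count of genes past 1.5-fold in all marker-selected cells, AptCD4-LNT over Untreated, was 996 with a minimum of 100 UMIs, 6043 with none and 628 at 2-fold, against 1816. The count of genes past 1.5-fold, Rgs5 cells, AptCD4-LNT over Untreated, was 843 with 30 UMIs, 141 with 100 UMIs, 5083 with none and 100 at 2-fold, against 391. The values that follow are list medians or gene ratios on the log2 scale, AptCD4-LNT over Untreated unless fibroblasts are named, and the cause of each was not tested. Without cells holding myeloid RNA, the members' lists stood at 0.025 for contractile and smooth muscle, -0.021 for proteases and inhibitors, -0.51 for interferon response and -0.26 for MHC class I. The same exclusion gave -0.50 for interferon response, -0.49 for Tnfrsf21 and 0.16 for Lmcd1 in Rgs5 cells, 0.87 for MHC class I in Dcn cells, and, for Rgs5 cells over fibroblasts, -0.83 for the Notch pathway (AptCD4-LNT) and 0.97 for the contractile list (Untreated). Without the highest doublet scores, Crabp1 and Stra6 stood at 1.45 and 0.30 in members, and Dcn cells had 0.13 for the contractile list, 0.16 for interferon response, 0.089 for MHC class I and 2.10 for cell cycle. That exclusion also gave 0.27 and 0.37 for MHC class II in members and in Rgs5 cells over fibroblasts (AptCD4-LNT), and 1.56 for the contractile list in Rgs5 cells over fibroblasts (Untreated), which was 1.37 with at least 100 UMIs. The stricter rule, which asks for 5 marker UMIs, gave Dcn cells 1.03 for the contractile list, -0.35 for chemokines and cytokines, 0.19 for interferon response, 0.040 for MHC class I and 1.13 for cell cycle. With no minimum count, Rgs5 cells over fibroblasts had 3.62 (AptCD4-LNT) and 3.15 (Untreated) for vessel tone signalling and 0.57 and 0.12 for angiopoietin and vessel growth factors. The directions given for Dcn cells thus depend on these exclusions. Depth limits the Rgs5 cells, in which 1984 genes reached 50 UMIs between the libraries, against 11097 in fibroblasts.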
